A study of Mus musculus with 5480 samples.

Results

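The IGF axis was followed in single cells of the developing mouse lung through 9 genes: the growth factor gene Igf1, the receptor genes Igf1r and Igf2r, and the binding-protein genes Igfbp2, Igfbp3, Igfbp4, Igfbp5, Igfbp6 and Igfbp7. These genes were listed by name, and all 9 were found among the 18072 genes of the count table. The table holds 5480 sorted cells of distal lung, nearly all mesenchymal, from 10 mice. In each group there was 1 female and 1 male. Normal-air mice were taken before birth at embryonic day 18.5 (E18.5) and after it on days 1, 7 and 21 (P1, P7, P21), and a last group was taken at P7 after hyperoxia, a high-oxygen exposure used to model injury of the newborn lung. The strain, the oxygen level and the length of the exposure are not given in the sources used here. The submitters' labels place every cell in 1 of 16 subtypes.

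IGF-I and IGF-II are secreted peptides that signal through the IGF1R tyrosine kinase to the PI3 kinase and AKT pathway and thereby to growth and survival. The receptor encoded by Igf2r has no kinase of its own; it takes up IGF-II for degradation and sorts lysosomal enzymes. The classical binding proteins hold IGFs in tissue fluid, shield them from clearance, and either withhold them from the receptor or release them when proteases cut the complex. The protein encoded by Igfbp7 binds IGFs weakly and is also a matrix protein of vessel walls. Lung mesenchyme is a known local source of IGF-I while alveoli form.

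The promoter windows of Igfbp3, Igfbp5, Igfbp6 and Igfbp7 are shown first, because these are the members that passed a test between P7 and P21 in airway smooth muscle or in the mean over cell classes. Each is the 250 bases before the RefSeq start site on GRCm38.p6, written 5′ to 3′ on the strand of the gene, in lower case with motif matches in capitals. The windows lie at chr11:7213924-7214173 (minus strand) for Igfbp3, chr1:72874866-72875115 (minus strand) for Igfbp5, chr15:102143936-102144185 (plus strand) for Igfbp6 and chr5:77408046-77408295 (minus strand) for Igfbp7.
Igfbp3: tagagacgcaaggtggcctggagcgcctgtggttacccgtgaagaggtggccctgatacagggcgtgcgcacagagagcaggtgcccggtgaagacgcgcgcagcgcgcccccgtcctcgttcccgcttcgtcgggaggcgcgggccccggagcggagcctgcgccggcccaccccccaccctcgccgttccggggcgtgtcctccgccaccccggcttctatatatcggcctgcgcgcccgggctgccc
Igfbp5: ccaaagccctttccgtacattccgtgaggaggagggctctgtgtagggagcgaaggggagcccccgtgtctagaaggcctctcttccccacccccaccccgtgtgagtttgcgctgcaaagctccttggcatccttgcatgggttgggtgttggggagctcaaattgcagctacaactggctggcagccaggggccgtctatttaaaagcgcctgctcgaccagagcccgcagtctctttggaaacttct
Igfbp6: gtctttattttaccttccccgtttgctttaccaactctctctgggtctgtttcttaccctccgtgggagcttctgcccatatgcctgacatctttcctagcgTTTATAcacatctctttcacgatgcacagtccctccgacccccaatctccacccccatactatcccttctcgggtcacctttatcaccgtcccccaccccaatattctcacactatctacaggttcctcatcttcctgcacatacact
Igfbp7: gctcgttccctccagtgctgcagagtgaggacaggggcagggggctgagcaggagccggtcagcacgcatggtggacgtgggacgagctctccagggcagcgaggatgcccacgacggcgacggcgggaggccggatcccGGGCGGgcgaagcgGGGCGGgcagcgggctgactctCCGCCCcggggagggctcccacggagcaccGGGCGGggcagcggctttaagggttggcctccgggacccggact
Both strands were searched for a TATA box (TATAAA), a GC box (GGGCGG), an E box (CACGTG), an AP-1 site (TGANTCA) and the CArG box. Among 32851 promoters of the same length, 12.4% held the TATA box, 32.7% the GC box, 6.02% the E box, 6.75% the AP-1 site and 1.47% the CArG box. The Igfbp7 window held 4 GC boxes, at 110, 96, 74 and 44 bases before the start, with no overlap between them. The Igfbp6 window held 1 TATA box letter match, on the reverse strand at 148 bases before the start. The Igfbp3 and Igfbp5 windows held none of the 5 motifs, which says only that these letters are not in these windows. The share of G and C was 73.2% for Igfbp3, 58.8% for Igfbp5, 49.6% for Igfbp6 and 74.0% for Igfbp7, against a median of 52.4% over all promoters. Igfbp2 and Igfbp5 are neighbours on chromosome 1, with their promoters 49.5 kb apart, and are transcribed towards each other. All 9 members had a RefSeq promoter, at 10 start sites in all since Igfbp2 has 2.

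The libraries were deep, with 39358 to 5177020 reads per cell (median 774305) and 311 to 633 cells per mouse. Reads were summed per mouse and subtype where a mouse had at least 10 cells, which gave 64 libraries over 15 subtypes, and levels are a gene's reads scaled by the library's summed reads, on the usual CPM scale. For tests the early and later labels of a cell type were joined into 6 classes: alveolar fibroblasts, adventitial fibroblasts, pericytes, vascular smooth muscle, airway smooth muscle and myofibroblasts. The summed markers of alveolar fibroblasts were highest in their own class (3322 to 11340 CPM, against at most 2019 elsewhere), and so were those of pericytes (5623 to 7969, against at most 2813). The other lists did not separate the classes: myofibroblast markers were higher in airway smooth muscle (7455 to 18300) than in myofibroblasts (4772 to 8115), overlapping only at the ends. Airway smooth muscle markers overlapped between airway muscle (1391 to 6375) and vascular muscle (1074 to 2988). Adventitial markers (1372 to 16460 in adventitial fibroblasts) overlapped airway muscle and alveolar fibroblasts (up to 2459 and 1984), and vascular markers (118.9 to 751.9 in vascular muscle) overlapped every other class (up to 294). The airway, vascular, adventitial and myofibroblast classes therefore rest on the submitters' labels. With 1 mouse of each sex per group, p-values measure only the spread between these mice, adjusted over all genes tested. The fits of the classes and of their mean left 2 to 4 residual degrees of freedom. Nearly all cells of the 4 male mice in normal air came from 1 sequencing run, so their differences are nearly all within a run. Apart from 9 cells of the male, the hyperoxic mice were in runs that held no normal-air mouse, so run and hyperoxia cannot be told apart. The E18.5 alveolar fibroblast libraries stand apart from the rest: they hold 14 female and 24 male cells with medians of 1042 and 1232 genes per cell, against 2878.5 and 3001 at P1.

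The members lie on chromosomes 10 (Igf1), 7 (Igf1r), 17 (Igf2r), 1 (Igfbp2 and Igfbp5), 11 (Igfbp3 and Igfbp4), 15 (Igfbp6) and 5 (Igfbp7). Reads per gene ranged from 167576 for Igfbp2 to 4155136 for Igfbp4. A read of Igfbp2 was found in 4.42% of all cells, of Igfbp6 in 14.27%, of Igfbp3 in 19.69% and of Igfbp5 in 22.57%. The other 5 members were found in 63.5% (Igf1r) to 76.77% (Igf2r) of cells. Igf1 overlaps the antisense gene Igf1os (1861 reads in all), Igf2r overlaps Airn (513606 reads), and Igfbp7 overlaps Polr2b, each on the opposite strand. These libraries do not mark the strand, so reads from such partners cannot be told apart there.

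Igf1, the ligand, was highest in the airway muscle and myofibroblast lineage. In the myofibroblast and smooth muscle precursors of E18.5 it stood at 1709 and 2056 CPM, and in early airway smooth muscle at 1045 to 1885 (median 1275, 6 mice). Myofibroblasts held 475 to 1149 (median 735.7, 6 mice). Early adventitial fibroblasts held 363 to 647 (median 549, 8 mice) and early alveolar fibroblasts 149 to 817 (median 289.5, 8 mice). Vascular smooth muscle had at most 117 CPM, and pericytes had a median of 0.00979 with 1 mouse at 92.9, all of it from 1 cell. The highest Igf1 of a mouse was in the airway smooth muscle lineage in 8 of 10 mice and in the myofibroblast and smooth muscle precursors in the 2 mice of E18.5. At P7 in normal air the order early airway smooth muscle, myofibroblast, proliferating myofibroblast held with no overlap between mice, while proliferating myofibroblasts overlapped early adventitial fibroblasts. The share of cells with an Igf1 read was taken after each cell was thinned to 100000 reads. It ran from 97.5% of the precursors and 95.7% of early airway smooth muscle to 1.455% of pericytes and 0 of 16 striated muscle cells. That 0 allows a share of up to 18.8%.

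Igf1r, the signalling receptor, was read in every subtype without a clear leader. Vascular smooth muscle had 119 to 192 CPM (median 160.6, 8 mice), early alveolar fibroblasts 27.9 to 280.4 (median 143.6) and myofibroblasts 78.8 to 143.5 (median 100.4, 6 mice). Pericytes had 1.96 to 104.6 (median 46.7), which overlapped most other subtypes. It was highest in vascular smooth muscle in 5 of 10 mice, and neighbours in the order overlapped at P7 from vascular smooth muscle down to early alveolar fibroblasts.

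Igf2r, the clearance receptor, was highest in pericytes in 6 of 10 mice, where it had 125 to 1029 CPM (median 375, 8 mice). At E18.5 pericytes (569 and 1029) overlapped early alveolar fibroblasts (462 and 642), which overlapped fibroblast precursors (456 and 496). At P1 pericytes (447 and 599) lay above all other subtypes. In the normal-air mice of P7 and P21 they overlapped a neighbour in the order. Myofibroblasts (55.8 to 133) and early airway smooth muscle (40.4 to 83.4) were lower, the latter with no overlap with pericytes. A read of Igf2r was found in 91.7% of thinned fibroblast precursors, 67.6% of pericytes and 22.3% of airway smooth muscle cells. These shares mix ages, since the precursors were nearly all of E18.5, the airway label all of P21 and pericytes of all groups. At P21 pericytes had 60.9% and 44.4%, and early airway smooth muscle at P1 and P7 had 39.5% to 75.4%. Over the 64 libraries the log2 levels of Igf1 and Igf2r had a Pearson correlation of −0.273, a weak value over libraries that share mice.

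The binding proteins fell into adventitial, muscle and broad patterns. Igfbp4 and Igfbp6 were highest in the adventitial lineage in all 10 mice. Igfbp4, whose protein is cut by the protease PAPP-A, reached 2046 and 2573 CPM in adventitial fibroblasts and 1310 to 3696 (median 1848) in early adventitial fibroblasts. Early alveolar fibroblasts had 184 to 1374 (median 922) and myofibroblasts 89.3 to 219.8. Igfbp6, whose protein prefers IGF-II, reached 829 and 1087 CPM in adventitial fibroblasts and 140.2 to 545 (median 336) in early adventitial fibroblasts, with no overlap, though the former were all of P21 and the latter of earlier ages. Its medians were 0 in pericytes, vascular smooth muscle and myofibroblasts. Igfbp2, read in the fewest cells, was highest in the adventitial lineage in all mice but 1. Early adventitial fibroblasts had 52.9 to 679 CPM (median 234) and vascular smooth muscle 0 to 101 (median 43.1). In pericytes it was at most 0.0164, and in the airway smooth muscle of P21 it was 0 in both mice.

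Igfbp5, whose protein also binds extracellular matrix, led in airway smooth muscle at P21 with 2021 and 2609 CPM. Vascular smooth muscle had 307 to 967 (median 563) and was the highest subtype in 6 of 10 mice. Pericytes had 1 read of Igfbp5 in all, and 0 of 275 thinned pericytes, pooled over 8 mice, held one. That count allows a share of cells with a read of up to 1.09%, a limit that covers the counting of cells only and not the spread between mice. Igfbp3, the main carrier of circulating IGF, led in the same cells, with 1323 and 2488 CPM in airway smooth muscle at P21. Alveolar fibroblasts of P21 followed at 652 and 679, adventitial fibroblasts at 435 and 550, and early adventitial fibroblasts spread from 82.7 to 562. By mouse, Igfbp3 was highest in early adventitial fibroblasts in 7 of 10 mice and in airway smooth muscle in the 2 mice of P21. Early airway smooth muscle had 4.26 to 105.7 CPM of it (median 26.4, 6 mice). Igfbp7 and Igfbp4 were both read widely, in 70.82% and 72.63% of all cells. For Igfbp7, adventitial fibroblasts had 2190 and 2682 CPM, vascular smooth muscle 1143 to 3430 (median 1626) and early adventitial fibroblasts 1029 to 2416 (median 1856), all overlapping. At E18.5 the precursors of myofibroblast and smooth muscle had the lowest Igfbp7, with 27.1 and 27.3, and at P7 in normal air proliferating myofibroblasts did, with 14.1 and 19.8.

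Per kilobase of exon the genes can be set against each other, here by the mean of a subtype over all its mice, so that subtypes of different ages are mixed. The highest mean of a subtype was 2015 CPM per kb for Igfbp7 and 862 for Igfbp6, both in adventitial fibroblasts, then 609 for Igfbp3 in airway smooth muscle. Igfbp4 reached 523 in adventitial fibroblasts, Igfbp5 385 in airway smooth muscle, Igf1 190 in the precursors, Igfbp2 146 in early adventitial fibroblasts, Igf2r 51.1 in fibroblast precursors and Igf1r 9.52 in vascular smooth muscle. Within an age the leader can be another subtype: at P21 vascular smooth muscle had a mean of 3021 CPM of Igfbp7 and adventitial fibroblasts 2436, with overlap, and at E18.5 pericytes had a mean of 799 CPM of Igf2r and fibroblast precursors 475.9. These levels between subtypes are descriptions, because the subtypes were themselves defined on expression.

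**Figure D1:**
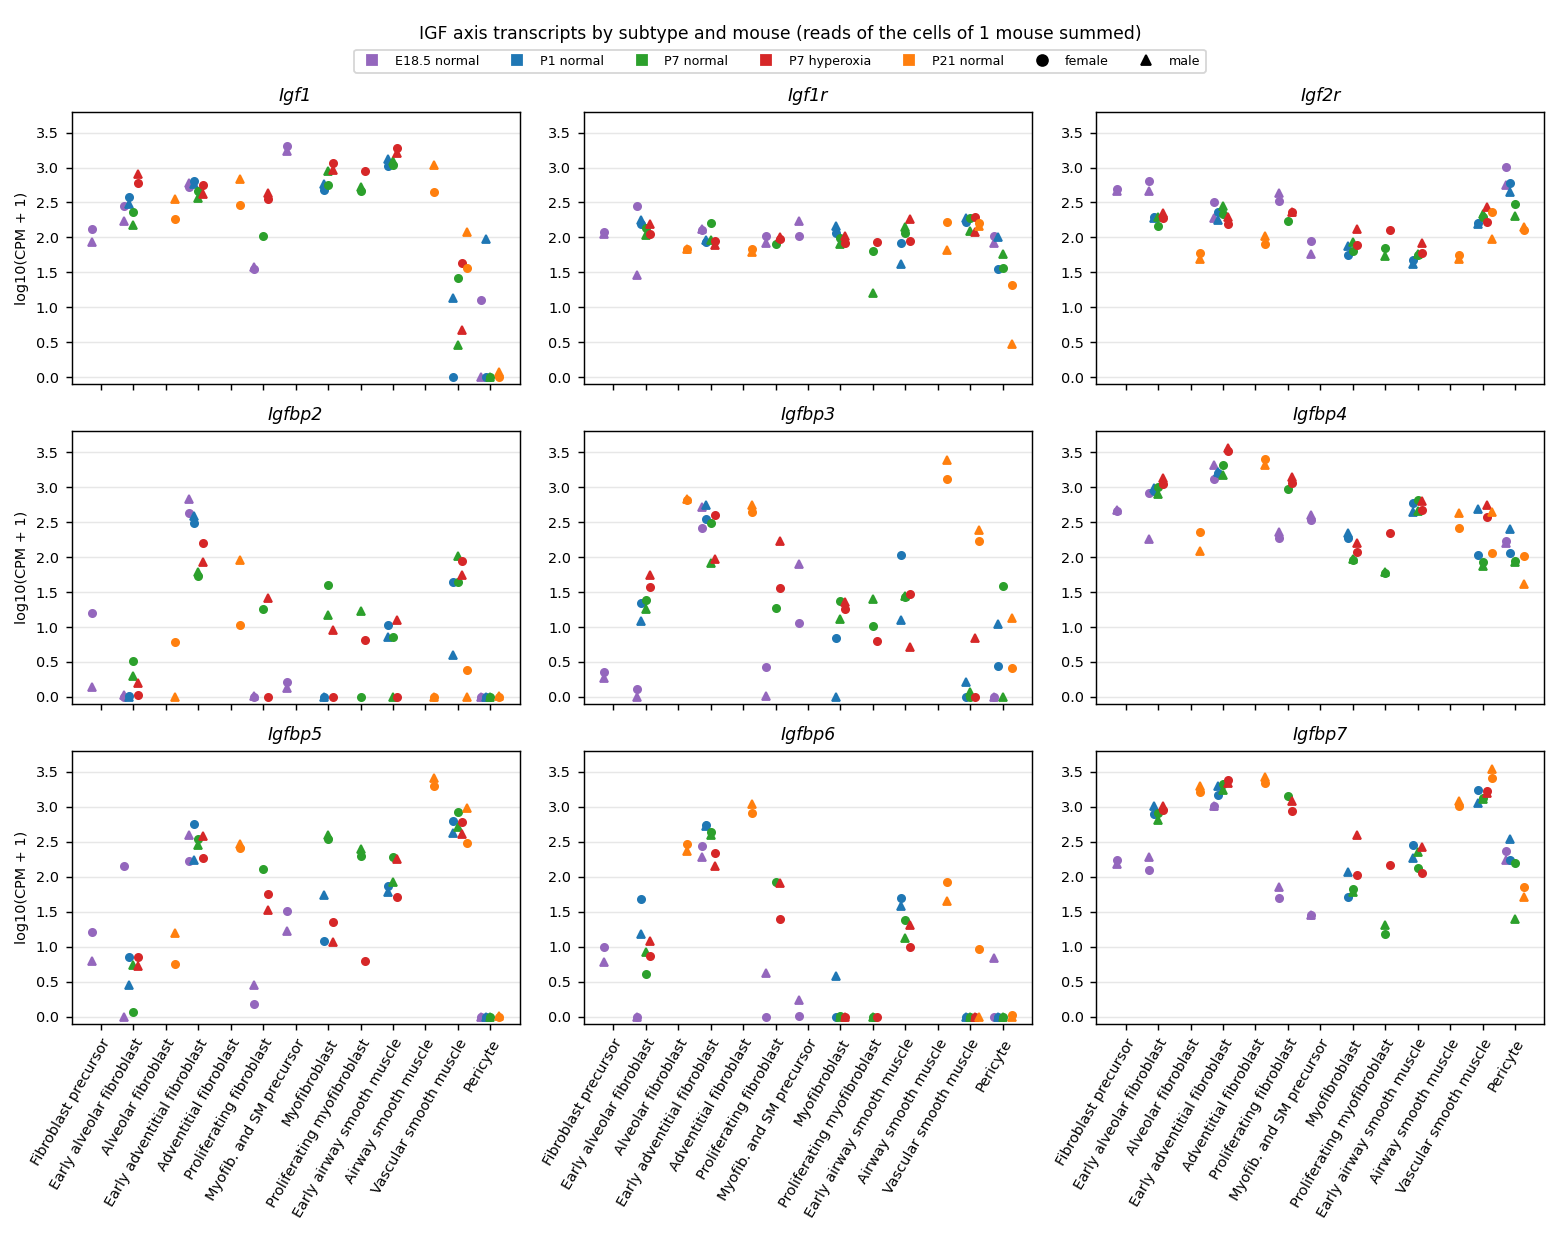
Level of each of the 9 genes by cell subtype. Each point is 1 mouse (reads summed over its cells of the subtype, at least 10 cells), on a y axis of log10(CPM + 1), colours give the group, and circles are females and triangles males. Igf1 is highest in the airway muscle lineage and near 0 in pericytes, while Igfbp4 and Igfbp6 are highest in the adventitial lineage.

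The makeup of the binding proteins, as shares of their summed reads per kilobase, differed by class. In vascular smooth muscle Igfbp7 made up 85.45% to 91.7% as group means, and in the alveolar fibroblasts of the postnatal groups 72.5% to 75.5%. At E18.5 the alveolar mice were far apart, with 32.9% Igfbp7 and 59.5% Igfbp4 in the female and 79.1% and 20.9% in the male. In adventitial fibroblasts it made up 45.0% at E18.5 and 63.6% at P7. Apart from those E18.5 mice, Igfbp4 had group means from 1.41% in vascular smooth muscle at P7 to 26.2% in adventitial fibroblasts in hyperoxia over the same classes. Pericytes were also mainly Igfbp7, with group means from 65.7% to 83.5% (51.2% and 80.1% in the mice of P7). The precursors of myofibroblast and smooth muscle stood apart with 67.7% Igfbp4 and 18.2% Igfbp7.

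Around birth (P1 against E18.5), the alveolar fibroblasts gained binding proteins. Igfbp7 stood at 124.8 CPM in the female and 190.0 in the male at E18.5, and at 793.5 and 1041 at P1, a ratio of means of 5.83. Both P1 mice were above both E18.5 mice, as they were for 42.5% of all genes at 1 CPM or more in this class. Igfbp6 had 0 reads in both E18.5 mice and 46.5 and 14.2 CPM at P1, 144-fold higher against a floor of 3 reads over the group. That floor treats reads as independent and is no lower bound, since the reads sat in few cells. Thinned cells with an Igfbp6 read were 9.36% and 5.26% at P1. At E18.5 0 of 21 thinned male cells had one, which allows a share of up to 14.3%. Igfbp3 had 1 read at E18.5 and 21.2 and 11.3 CPM at P1; the ratio of pooled levels was 248.5 with an exact 95% interval from 44.6 to 9815, which covers counting error only. These 3 members passed edgeR's quasi-likelihood test at adjusted p = 0.0284 (Igfbp3 and Igfbp7) and 0.0289 (Igfbp6), where 6.16% of all genes tested passed. The fitted log2 change of Igfbp7 was 2.49 (SE 0.38), against a median of 1.36 over all genes in this comparison. None of the 3 calls held when any single mouse of P1, P7, P21 or hyperoxia was left out, or when only the 4 mice of the contrast were fitted.

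The same E18.5 libraries carried other marks. In the female the summed epithelial markers stood at 1031 CPM (5 of 8 markers at 0), against 18.4 to 131.5 in the other alveolar libraries, and the immune markers at 394 (2 of 7 at 0), against 9.28 to 58.2. In the E18.5 male both sums were low (25.9 and 9.28). A single cell gave 75.9% of the Igfbp7 reads in the E18.5 female and 44.3% in the male. The part of these cells in the result was not tested. Igf2r moved the other way, from 642 and 462 CPM to 197.5 and 191.7 (ratio 0.353), with an adjusted p of 0.0675 in edgeR.

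In adventitial fibroblasts across birth no member passed edgeR's test, where 0.170% of genes passed, and 0 were called by DESeq2. An unadjusted p under 0.05 was found for 2 members and for 1411 of all 15289 genes tested. The 2 were Igfbp6, at 275 and 191 CPM before birth and 545 and 528 after, and Igfbp7, at 1029 and 1045 before and 1483 and 1984 after. Igfbp2 stood at 433 and 679 CPM before birth and 309 and 386 after, lower with no overlap, as were 17.6% of all genes. In pericytes no member of the 6 tested passed in edgeR (0.0420% of genes; 0 at an unadjusted p under 0.05; 1 by DESeq2, Igfbp3). Averaged over alveolar fibroblasts, adventitial fibroblasts and pericytes, no member passed limma's test (0.544% of genes). An unadjusted p under 0.05 was found for 3 members and for 2072 of all 12856 genes tested. Those 3 were Igfbp3, Igfbp6 and Igfbp7, all with positive estimates. DESeq2 called 1.11% to 26.5% of all genes, depending on the comparison.

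Between P1 and P7 in normal air, no member passed the threshold in any class, and few genes of any kind did. In edgeR 0% of genes passed in alveolar fibroblasts, adventitial fibroblasts, pericytes, vascular smooth muscle, airway smooth muscle and myofibroblasts alike. Members at an unadjusted p under 0.05 numbered 1 in alveolar fibroblasts, 1 in adventitial fibroblasts and 3 in myofibroblasts. Of all genes tested, 370 of 15670, 856 of 15289 and 1072 of 13380 had such a p in that order. Members numbered 0 in pericytes, vascular smooth muscle and airway smooth muscle. DESeq2 called 2 members in myofibroblasts, 1 in pericytes and 0 in the other classes, and 1.11% to 26.5% of all genes depending on the comparison. Averaged over 5 classes, no member passed in limma either (0.670% of genes). An unadjusted p under 0.05 was found for 1 member, Igfbp5, and for 1382 of all 12987 genes.

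The myofibroblast values were still far apart for Igfbp5. It stood at 10.9 CPM in the female and 54.5 in the male at P1 and at 346.6 and 401.3 at P7, a ratio of means of 11.4. The share of thinned myofibroblasts with an Igfbp5 read went from 5.88% and 11.1% to 48.7% and 55.1%. At P1 a single cell gave 57.0% and 89.3% of the Igfbp5 reads, and at P7 7.83% and 7.37%. The fitted log2 change was 3.58 (SE 0.83, adjusted p = 0.504 in edgeR), and DESeq2 called it at an adjusted p of 0.000211. Leaving out the P1 female gave a log2 change of 2.48 and leaving out the P1 male 5.38. Igfbp2 was at 0 in both P1 mice and at 39.4 and 13.7 CPM at P7, and 3 cells gave 75.9% and 78.1% of those reads. The P7 level was 437-fold higher against a floor of 3 reads, which treats reads as independent and is no lower bound. Thinned cells with an Igfbp2 read were 5.26% and 3.93% at P7. At P1 0 of 34 and 0 of 27 had one, which allows shares of up to 8.82% and 11.1%. Igfbp4 stood at 185 and 220 CPM at P1 and 89.3 and 94.0 at P7.

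In adventitial fibroblasts Igfbp2 had 309 and 386 CPM at P1 and 50.5 and 60.7 at P7, a ratio of 0.160 (adjusted p = 0.829 in edgeR). Its reads sat in few cells: 3 cells gave 53.4% and 60.8% of them at P1 and 75.7% and 79.6% at P7. In alveolar fibroblasts Igf1 stood at 376 and 300 CPM at P1 and 233 and 149 at P7, without overlap. There 23.0% of all genes at 1 CPM or more were higher without overlap and 18.5% lower, so non-overlap of 4 mice is common.

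Between P7 and P21 binding-protein RNA rose in the airway smooth muscle. Igfbp3 stood at 26.1 CPM in the female and 26.7 in the male at P7 and at 1248 and 2313 at P21, a ratio of means of 67.3. Igfbp5 stood at 192.2 and 84.1 at P7 and at 1909 and 2435 at P21, a ratio of 15.7. Igfbp7 stood at 134.4 and 222 at P7 and at 1030 and 1281 at P21, a ratio of 6.48. In all 3 genes both P21 mice were above both P7 mice, as they were for 14.4% of all genes in this class, while 32.9% were lower without overlap. The fitted log2 changes were 6.58 (SE 1.06, adjusted p = 0.0207) for Igfbp3, 4.29 (SE 0.68, adjusted p = 0.0201) for Igfbp5 and 3.08 (SE 0.48, adjusted p = 0.0186) for Igfbp7 in edgeR, where 1.13% of all genes passed. The male values, nearly all from 1 sequencing run, gave differences in log2(CPM + 1) of 6.38, 4.84 and 2.52.

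Each of the 3 airway calls rested on particular mice. Without the P7 female the adjusted p in edgeR was 0.0791 for Igfbp3 and 0.148 for Igfbp7. Without the P7 male it was 0.0920 for Igfbp5 and 0.101 for Igfbp7, and without the P21 male 0.0758 for Igfbp3. In the same libraries the 6 smooth muscle markers summed to 16430 and 19950 CPM at P7 and to 4358 and 4693 at P21. The 6 adventitial fibroblast markers summed to 540.2 and 540.1 CPM at P7 (2 and 1 of them at 0) and to 1733 and 2459 at P21 (2 of them at 0 in each mouse). Dcn stood at 902 and 1192 CPM at P21 against 0.233 and 7.35 at P7, and Dpt at 695 and 1011 against 272 and 325. The defining adventitial markers Pi16 and Ly6a had 0 reads in both P21 mice, and Dpp4 had 2 and 3. Their part in the result was not tested.

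The change was seen in the share of cells as well. Of thinned airway smooth muscle cells, 12.0% (female) and 7.94% (male) had an Igfbp3 read at P7 and 62.9% and 66.1% at P21. For Igfbp5 the shares were 44.0% and 39.7% at P7 and 91.9% and 96.4% at P21, and for Igfbp7 57.3% and 55.6% against 98.4% and 85.7%. All 3 genes were read together in 6.67% and 1.59% of cells at P7, with exact 95% intervals of 2.2 to 14.9% and 0.0402 to 8.53%. At P21 they were read together in 36 of 62 cells (58.1%, 44.8 to 70.5%) and 33 of 56 cells (58.9%, 45.0 to 71.9%); these intervals cover counting error only. At P7 3 cells gave 70.6% and 96.5% of the Igfbp3 reads, and at P21 45.3% and 36.7%. For comparison, thinned pericytes had an Igfbp3 read in 1.82% of cells, no Igfbp5 read, and an Igfbp7 read in 32.36% of cells; their Igfbp7 level (23.8 to 345.6 CPM, median 163.2, 8 mice) spanned that of airway smooth muscle at P7.

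**Figure D2:**
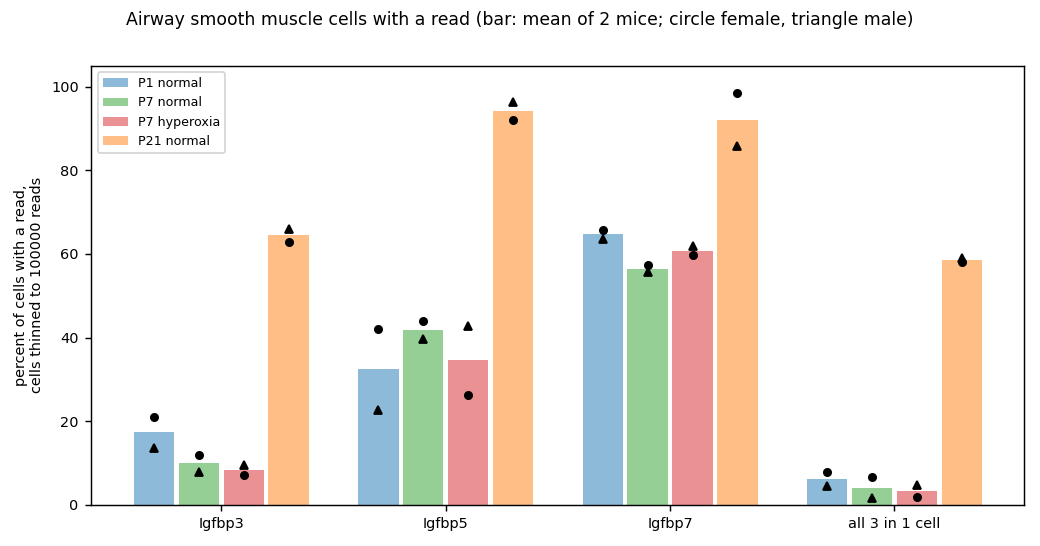
Share of airway smooth muscle cells with a read of Igfbp3, Igfbp5, Igfbp7 and of all 3 together, by group, with each cell thinned to 100000 reads. Each point is 1 mouse (circle female, triangle male), bars are means, and the y axis is percent of cells. All 3 together were found in 6.67% and 1.59% of cells at P7 and in 58.1% and 58.9% at P21.

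The other airway members gave no call in edgeR. Igfbp4 stood at 664 and 457 CPM at P7 and 248 and 403 at P21, lower without overlap (32.9% of all genes were) and with an unadjusted p above 0.05. Igfbp6 stood at 23.2 and 12.3 at P7 and 87.7 and 41.1 at P21, with 51.0% and 47.7% of the P21 reads from 1 cell (adjusted p = 0.393 in edgeR). Igf1 overlapped, with 1073 and 1219 CPM at P7 and 460.2 and 1098 at P21. The sum of the 6 binding proteins per kilobase stood at 326 and 321 CPM per kb at P7 and 1703 and 2333 at P21. Within it Igfbp4 had a mean share of 39.2% at P7 and 3.61% at P21, Igfbp3 2.61% and 27.6%, and Igfbp5 7.09% and 18.0%.

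In alveolar fibroblasts Igfbp3 and Igfbp6 stood higher and Igfbp4 lower over the same interval. Igfbp3 stood at 23.7 and 17.3 CPM at P7 and at 652.6 and 671.3 at P21, a ratio of 32.3. Igfbp6 stood at 3.02 and 7.54 at P7 and at 294.4 and 237.0 at P21, a ratio of 50.3. Igfbp4 stood at 1016 and 794 at P7 and at 225 and 138 at P21, a ratio of 0.201. Both mice of P21 lay outside the range of P7 for all 3. No member passed edgeR's test in this class, where 0.0702% of genes passed. An unadjusted p under 0.05 was found for 5 members and for 1118 of all 15670 genes tested. The adjusted p-values were 0.119 for Igfbp3, 0.247 for Igfbp6 and 0.454 for Igfbp4. When only the 4 mice of this contrast were fitted, Igfbp3 and Igfbp6 passed at 0.00134 and 0.00256 in edgeR. Such fits called 0% to 0.921% of all genes depending on the comparison. Without either E18.5 mouse the log2 changes were 5.33 for Igfbp3, 5.95 for Igfbp6 and −2.05 for Igfbp4. DESeq2 called 4 members, namely Igf2r, Igfbp3, Igfbp6 and Igfbp7, and 1.11% to 26.5% of all genes depending on the comparison.

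The share of cells moved likewise. A thinned alveolar fibroblast had an Igfbp3 read in 12.4% and 8.70% of cells at P7 and 52.3% and 45.7% at P21, and an Igfbp6 read in 1.90% and 2.17% against 55.7% and 34.3%. An Igfbp4 read was found in 86.2% and 80.4% at P7 and 42.6% and 22.9% at P21. At P7 a single cell gave 79.3% of the male's Igfbp6 reads. Igf2r stood at 145 and 192 CPM at P7 and 59.8 and 55.7 at P21, and Igf1r at 135 and 108 against 68.1 and 65.5. All genes together leaned to lower values without overlap in this class, with 32.1% lower and 16.4% higher.

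In adventitial fibroblasts no member passed between P7 and P21 in edgeR (0.124% of genes), and 1 was called by DESeq2. An unadjusted p under 0.05 was found in edgeR for 3 members and for 1554 of all 15289 genes. Igfbp6 stood at 423 and 394 CPM at P7 and 799 and 1091 at P21 (ratio 2.31, adjusted p = 0.205 in edgeR), the member DESeq2 called. Depending on the comparison, DESeq2 called 1.11% to 26.5% of all genes. The share of cells with an Igfbp6 read was 36.0% and 42.6% at P7 and 83.0% and 75.3% at P21. Igf2r stood at 209 and 278 at P7 and 81.3 and 103 at P21. Igfbp4, low in alveolar fibroblasts at P21, stood here at 2039 and 1488 at P7 and 2493 and 2043 at P21.

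The difference between both fibroblast classes in their P7 to P21 change was tested directly with an interaction term in edgeR. For Igfbp4 the adventitial change exceeded the alveolar one by 2.60 in log2 (SE 0.28, adjusted p = 0.0572). For Igfbp6 the adventitial change was lower by 4.72 (SE 0.58, adjusted p = 0.0833) and for Igfbp3 lower by 3.52 (SE 0.54, adjusted p = 0.162). No member passed, with 0.0668% of genes called. An unadjusted p under 0.05 was found for 4 members and for 788 of all 14980 genes. With no filter on low counts, Igfbp4 and Igfbp6 passed at 0.0145 and 0.0283 in edgeR. Fits with no filter called 0% to 5.03% of all genes depending on the comparison.

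Vascular smooth muscle had almost no Igfbp3 at P7 (0 and 0.186 CPM, 5 reads in all) and 168 and 242 CPM at P21. Of its thinned cells, 0 of 26 and 0 of 28 had an Igfbp3 read at P7, which allows shares of up to 11.5% and 10.7%, and 18.8% and 21.1% had one at P21. The ratio of pooled levels was 2180 with an exact 95% interval from 934 to 6717, which covers counting error only and treats reads as independent. Of the P21 reads 3 cells gave 74.5% in the female and 99.7% in the male. Igfbp7, the vessel wall gene, stood at 1360 and 1296 CPM at P7 and 2612 and 3430 at P21, while Igfbp2 stood at 42.5 and 101 and then at 1.41 and 0. No member of the 8 tested passed in edgeR (0.0886% of genes), and DESeq2 called 2, Igfbp2 and Igfbp3. An unadjusted p under 0.05 was found in edgeR for 4 members and for 895 of all 12417 genes. For Igfbp3 the adjusted p in edgeR was 0.106, and 0.000285 when only the 4 mice of the contrast were fitted. Depending on the comparison, such fits called 0% to 0.921% of all genes and DESeq2 1.11% to 26.5%. Pericytes had no member of 6 past the threshold (0.0504% of genes in edgeR; 0 at an unadjusted p under 0.05; 1 by DESeq2, Igf1, on 13 reads). Their Igf2r stood at 303 and 203 CPM at P7 and 125 and 140 at P21.

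Averaged over the 5 classes, Igfbp3, Igfbp6 and Igfbp7 rose from P7 to P21 in limma, where 3.88% of all genes passed. The log2(CPM + 1) change was 4.23 (SE 0.52, adjusted p = 0.000113) for Igfbp3, 1.36 (SE 0.28, adjusted p = 0.0112) for Igfbp7 and 2.23 (SE 0.56, adjusted p = 0.0335) for Igfbp6. Another 2 members had an unadjusted p under 0.05, Igfbp5 with 1.32 (adjusted p = 0.121) and Igfbp2 with −1.45 (adjusted p = 0.207). Such a p was found for 2408 of all 13047 genes tested. The median change of all genes was 0.04. Igfbp3 kept its call when any of these 4 mice was left out, with estimates from 3.23 to 5.14. Igfbp6 lost it without any of the 4, and Igfbp7 without the P7 female, the P7 male or the P21 male. With no filter on low values all 3 calls were lost.

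**Figure D3:**
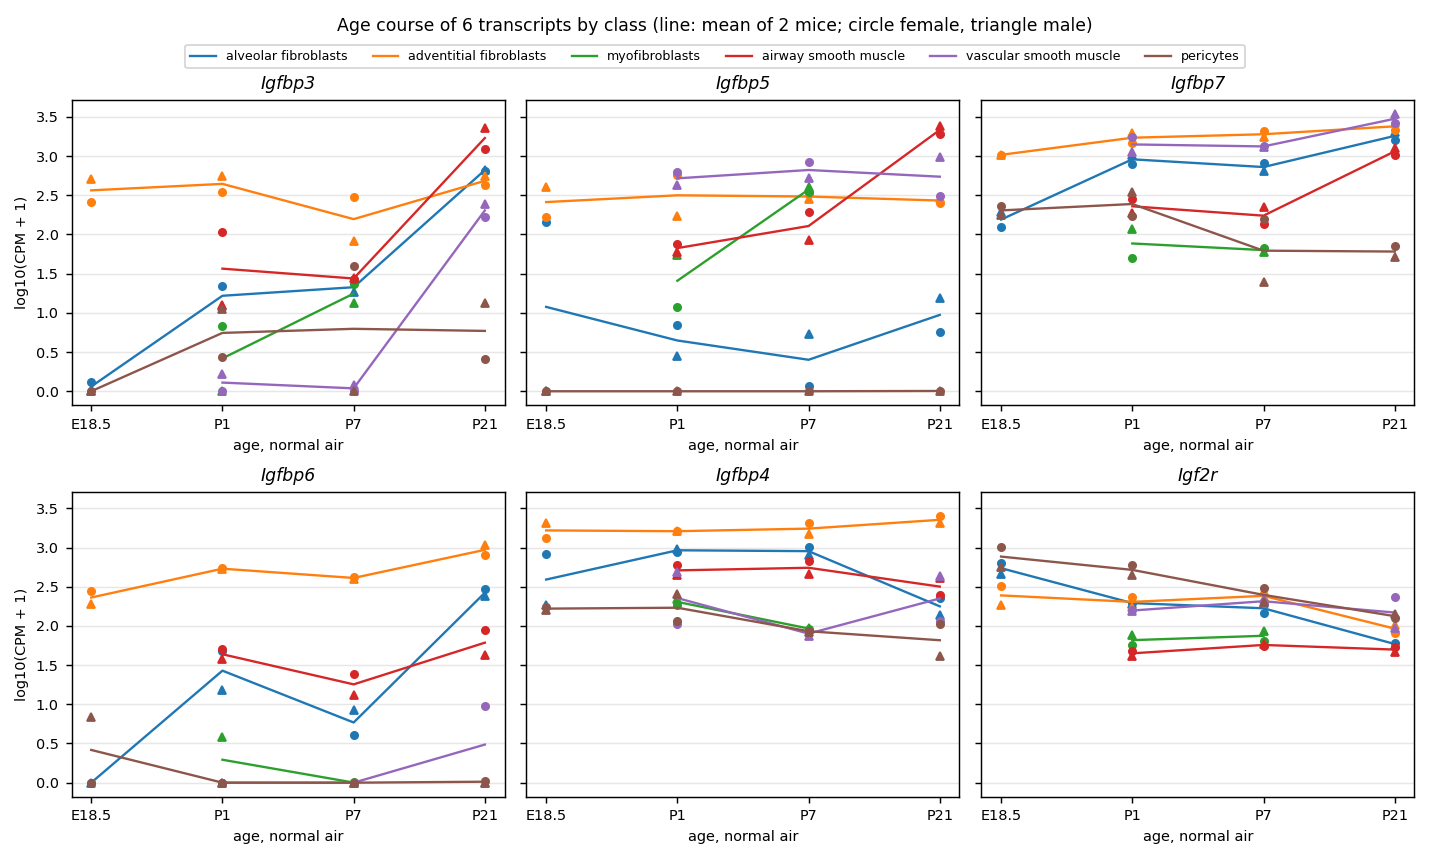
Level of Igfbp3, Igfbp5, Igfbp7, Igfbp6, Igfbp4 and Igf2r by age in normal air for each cell class, as log10(CPM + 1). Each point is 1 mouse (circle female, triangle male) and lines join the means of the log values. At P21 Igfbp3 lies between 424.5 and 2313 CPM in the airway, alveolar and adventitial classes.

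Under hyperoxia at P7, Igf1 was higher in the alveolar fibroblasts. It stood at 233 CPM in the female and 149 in the male in normal air and at 599.6 and 816.7 in hyperoxia, a ratio of means of 3.71. The share of thinned cells with an Igf1 read was 51.4% and 48.6% in normal air and 80.9% and 87.1% in hyperoxia. A higher share was not particular to Igf1. In the same cells Igf1r went from 48.1% and 44.9% to 67.5% and 81.7%, and Igf2r from 58.6% and 57.25% to 90.9% and 93.4%. Airway smooth muscle had 1073 and 1219 CPM in normal air and 1885 and 1586 in hyperoxia (ratio 1.51), and myofibroblasts 563 and 885 against 1149 and 933 (ratio 1.44). In these 3 classes the groups did not overlap, as for 17.3% to 26.3% of all genes in the upward direction. Adventitial fibroblasts overlapped, with 447 and 365 in normal air and 564 and 411 in hyperoxia. The fitted log2 change in alveolar fibroblasts was 1.74 (SE 0.51, adjusted p of 1 in edgeR).

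Igfbp5 in myofibroblasts stood far lower in hyperoxia. It stood at 346.6 and 401.3 CPM in normal air and at 21.3 and 10.8 in hyperoxia, a ratio of 0.043. An Igfbp5 read was found in 48.7% and 55.1% of thinned myofibroblasts in normal air and in 19.0% and 17.8% in hyperoxia. The hyperoxia values overlapped those of P1 (10.9 and 54.5 CPM). The fitted log2 change was −4.48 (SE 0.84, adjusted p = 0.347 in edgeR) with all 6 mice of the class in the fit. With only the 4 mice of the contrast the adjusted p in edgeR was 0.00197, and in DESeq2 with all 6 mice it was 5.49e-07. Without the P1 female the log2 change was −4.66 and without the P1 male −4.72. The fit of 6 mice left 2 residual degrees of freedom and the smaller fits fewer. These p-values therefore rest on little information about the spread. In vascular smooth muscle, where Igfbp5 is also abundant, it overlapped with 847 and 520 CPM in normal air and 605 and 407 in hyperoxia.

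Igfbp4 was higher in hyperoxia in 4 of 5 classes without overlap, where 22.9% to 28.9% of all genes were. Adventitial fibroblasts had 2039 and 1488 CPM in normal air and 3301 and 3696 in hyperoxia (ratio 1.98). Vascular smooth muscle had 84.9 and 72.9 against 375 and 557 (ratio 5.90), myofibroblasts 89.3 and 94.0 against 117 and 158 (ratio 1.50), and alveolar fibroblasts 1016 and 794 against 1100 and 1374 (ratio 1.37). Airway smooth muscle overlapped, with 664 and 457 against 475 and 625.

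Igfbp7 was likewise higher without overlap in the same 4 classes, by smaller ratios except in myofibroblasts. It stood at 807 and 650 CPM in normal air and 908 and 1018 in hyperoxia in alveolar fibroblasts (ratio 1.32), at 2063 and 1748 against 2419 and 2165 in adventitial fibroblasts (ratio 1.20), and at 1360 and 1296 against 1672 and 1579 in vascular smooth muscle (ratio 1.22). Myofibroblasts had 65.7 and 58.9 against 105.1 and 396.6 (ratio 4.03), where 1 cell gave 61.1% of the reads of the hyperoxic male. Airway smooth muscle overlapped, with 134.4 and 222 against 111.8 and 269.5. Igfbp6 in adventitial fibroblasts stood at 423 and 394 in normal air and 219.7 and 140.2 in hyperoxia, a ratio of 0.441. DESeq2 called this change at an adjusted p of 0.0351, and edgeR gave 0.543. In the makeup of the adventitial binding proteins Igfbp4 had a mean of 16.0% in normal air and 26.2% in hyperoxia, and Igfbp6 14.9% and 5.27%.

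No member passed the threshold under hyperoxia in any class in edgeR, and neither did any gene: 0% of genes passed in alveolar fibroblasts, adventitial fibroblasts, vascular smooth muscle, airway smooth muscle and myofibroblasts. Members at an unadjusted p under 0.05 numbered 1, 2, 2, 0 and 2 in that order, and DESeq2 called 0, 1, 0, 0 and 1. Such a p was found for 420 of 15670, 1224 of 15289, 319 of 12417, 418 of 13496 and 847 of 13380 genes. Depending on the comparison, DESeq2 called 1.11% to 26.5% of all genes. Averaged over the 5 classes, no member passed in limma (2.03% of genes). An unadjusted p under 0.05 was found for 3 members and for 1795 of all 12987 genes. The 3 were Igfbp5 with −1.00 (SE 0.33, adjusted p = 0.108), Igfbp4 with 0.74 (SE 0.28, adjusted p = 0.175) and Igf1 with 0.64 (SE 0.31, adjusted p = 0.328).

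The differences of the hyperoxia effect between classes did not pass either. Against alveolar fibroblasts, the Igf1 change of adventitial fibroblasts was lower by 1.67 in log2 (SE 0.33, adjusted p = 0.648 in edgeR). In that test 0 members and 0% of genes were called, with 5 members and 1064 of 15587 genes at an unadjusted p under 0.05. The Igfbp5 change of myofibroblasts was lower than that of alveolar fibroblasts by 7.01 (SE 1.53, adjusted p = 0.602 in edgeR). There 0 members and 0.0130% of genes were called, with 2 members and 896 of 15393 genes at an unadjusted p under 0.05. Hyperoxic cells held more genes in every class: their libraries had medians of 3755 to 6609 genes per cell (middle value 4859.5, 10 libraries), against 2018 to 3773 (middle value 2848.75, 10 libraries) in normal air at P7. Their part in the hyperoxia values was not tested. Pericytes of the hyperoxic mice, 5 and 3 cells, were too few and were not analysed.

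**Figure D4:**
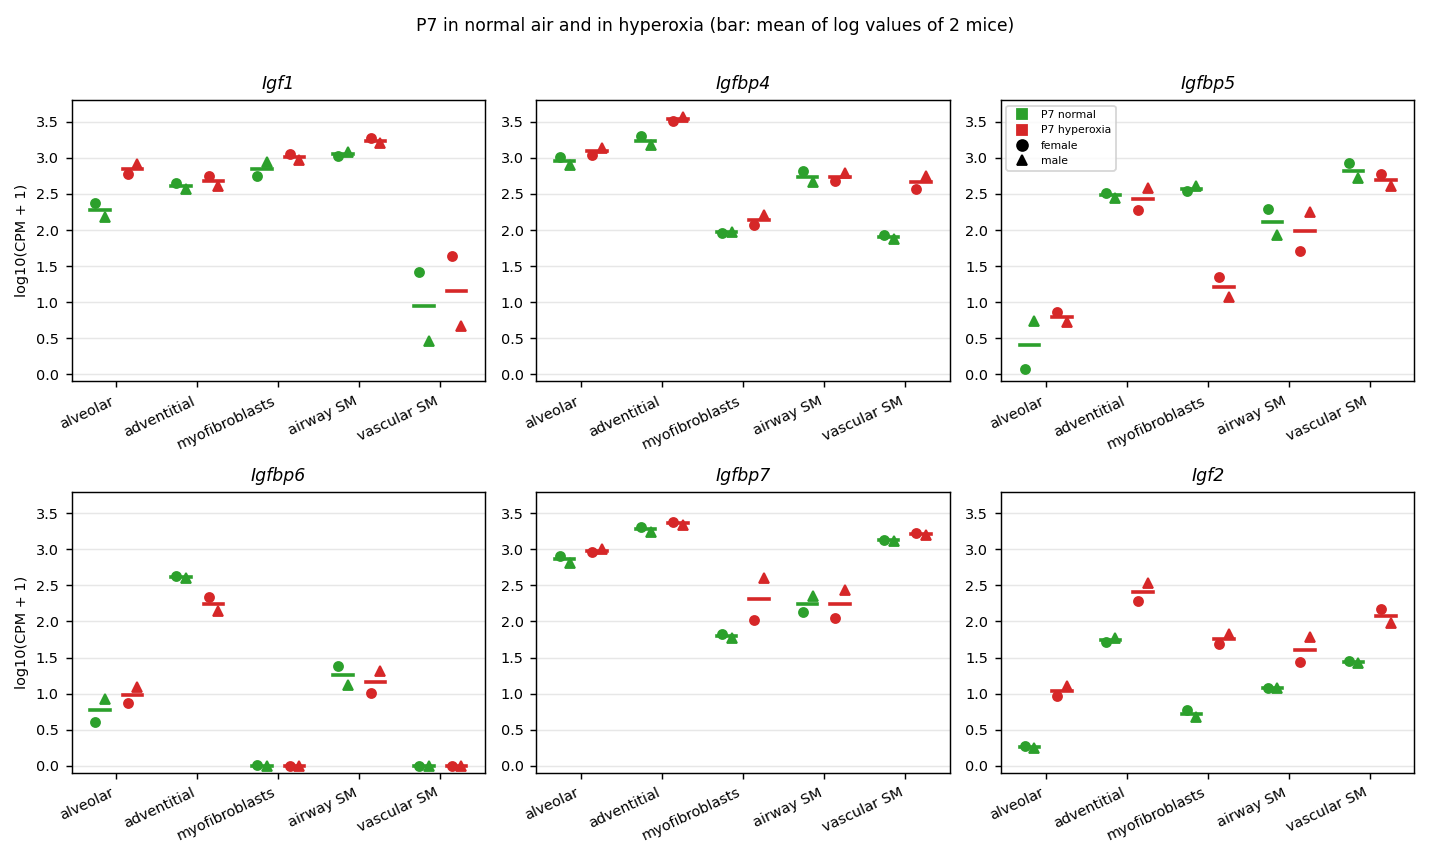
Level of Igf1, Igfbp4, Igfbp5, Igfbp6, Igfbp7 and the second ligand gene Igf2 at P7 in normal air and in hyperoxia, for 5 cell classes, as log10(CPM + 1). Each point is 1 mouse (circle female, triangle male) and bars are means of the log values. In myofibroblasts Igfbp5 stands at 346.6 and 401.3 CPM in normal air and at 21.3 and 10.8 in hyperoxia.

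The makeup of the myofibroblast binding proteins moved with these values. Igfbp5 had a mean share of 3.94% at P1, 40.5% at P7 in normal air and 1.69% at P7 in hyperoxia. Igfbp7 had 54.15%, 33.35% and 79.05% in the same groups, the last with most of the male's Igfbp7 reads from 1 cell as given above. The 2 contrasts of P7 share the normal-air mice, so they are not independent of each other.

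**Figure D5:**
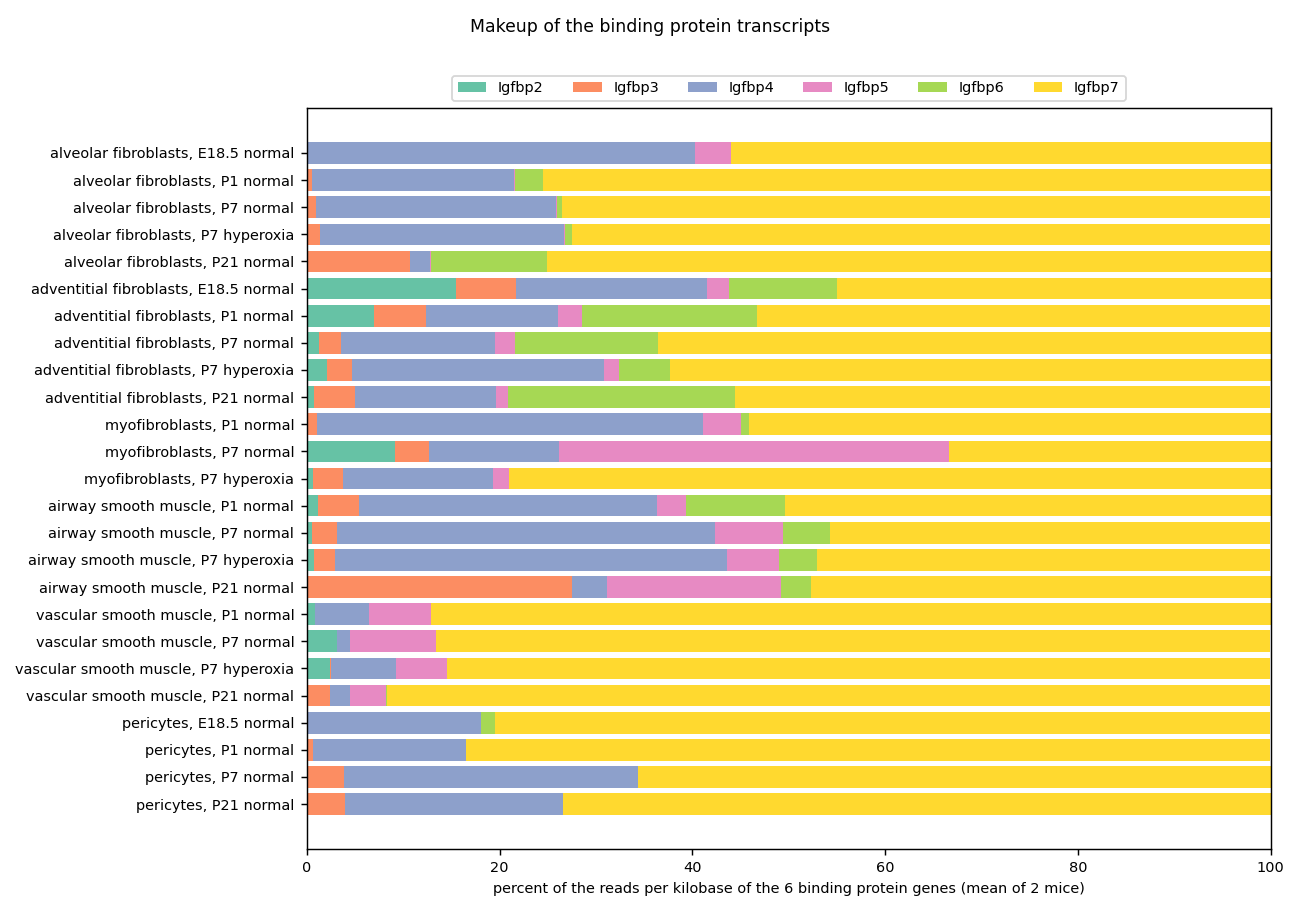
Makeup of the binding proteins by cell class and group. Each bar stacks the mean shares of the 6 genes in their summed reads per kilobase (percent, mean of 2 mice). Igfbp5 makes up 40.5% in myofibroblasts at P7 in normal air and 1.69% in hyperoxia, and Igfbp3 27.6% in airway smooth muscle at P21.

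Around the members, 32 further genes of the pathway were listed by role and 25 to 28 of them could be tested. Most did not pass in most comparisons. The other ligand, Igf2, a growth factor of the fetus, fell from P1 to P7 by 2.85 in log2 averaged over 5 classes (SE 0.40, adjusted p = 3.12e-06 in limma). In adventitial fibroblasts it went from 455 and 344 CPM to 51.2 and 57.2, and in vascular smooth muscle from 341 and 489 to 27.4 and 25.3. In hyperoxia it was higher by 2.27 (SE 0.40, adjusted p = 0.000158 in limma), with ratios of means from 3.93 in airway smooth muscle to 13.3 in myofibroblasts and no overlap in any of the 5 classes, where 17.3% to 28.9% of all genes were higher without overlap. Both results use the same normal-air mice of P7. Igf2bp3, which binds Igf2 mRNA, fell from P1 to P7 by 1.63 (adjusted p = 0.0274 in limma). The list had 2 of 28 genes lower and 0 higher in that comparison, with a median change of 0.08 against 0.10 over all genes. In hyperoxia 1 of 28 was higher and 0 lower, with a median of 0.12 against −0.02.

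From P7 to P21, 1 listed gene of 28 rose and 2 fell in the mean over classes, with a median change of 0.26 against 0.04 over all genes. Foxo1, a transcription factor that AKT holds in check, rose by 2.92 (adjusted p = 0.00489 in limma). Adam12, a protease that cuts binding proteins, fell by 2.87 (adjusted p = 0.0189), and Grb10, an adaptor that dampens receptor signalling, fell by 1.16 (adjusted p = 0.0459). In the alveolar fibroblasts across birth, Akt2 and Foxo1 passed in edgeR with log2 changes of 6.71 (adjusted p = 0.0354) and 6.82 (adjusted p = 0.0339), 2 higher and 0 lower of 28, with a median of 0.11 against 1.36 over all genes. Both rest on the E18.5 libraries described above. None of the listed genes passed in the other comparisons in edgeR or limma.

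The genes most like each member were taken as the 3 with the highest Pearson correlation of log2(CPM + 1) over the 64 libraries, among 9441 genes. Libraries of the same mouse share animal and run, so these values are descriptions. Igf1 was most like Gas7 (0.847), Tmem132c (0.842) and Robo2 (0.836). Igf2r was most like Rap2a (0.814), and Igf1r like Kctd10 (0.737). Igfbp4 followed the fibrillar collagen genes Col1a1 (0.860) and Col1a2 (0.821), and Igfbp6 followed Faim2 (0.873), the matrix gene Efemp1 (0.838) and the collagen gene Col3a1 (0.817). Igfbp3 shared Efemp1 (0.752) and Faim2 (0.750), with Igfbp6 itself the third (0.746). Igfbp7 was most like S100a6 (0.908), Igfbp5 like Pcdh7 (0.807) and Igfbp2 like Fbln2 (0.744), a gene of matrix fibres. Among the members themselves the highest value was the one between Igfbp3 and Igfbp6, followed by Igfbp4 and Igfbp6 (0.715), and the lowest was between Igf2r and Igfbp5 (−0.349).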

How the data were processed

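Whole-number read counts per gene and cell were deposited by the authors as 1 table of 18072 genes and 5480 cells, and the submitters' processing notes name STAR 2.5.2b and HTSeq 0.10, with the build name GRCh38, a human build, for these mouse cells. The libraries were made with the Tn5 enzyme on plates, with no molecular identifiers, per the labels' protocols. Reads were summed per mouse and subtype or class with at least 10 cells, and levels are CPM of those sums. edgeR 4.0.16 (quasi-likelihood test, TMM, filterByExpr, group and sex in the design) tested each class over all its mice, and limma 3.58.1 tested the mean of log2(CPM + 1) over classes, with a pseudocount of 1 and a minimum mean of 1 CPM. P-values were adjusted by the Benjamini-Hochberg method over all genes tested, with a threshold of 0.05. Each SE given with an edgeR change was derived from the test, as the absolute log2 change divided by the square root of its F value. It is therefore an approximate measure and no separate estimate of precision. DESeq2 1.42.0, R 4.3.3 and Python 3.11.15 were also used. For shares of cells each cell was thinned to 100000 reads, which left out 168 cells. No column of the table was left unused, and no doublet caller was run.

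All 9 members are named. Pathway genes are named where their adjusted p passed 0.05, and like genes are the 3 with the highest Pearson correlation among genes with a mean of at least 10 CPM. The members and lists were chosen with earlier results of these data known. The fits were run on simulated counts with the same spread for all genes and large changes in genes above a set level. That run does not cover genes whose reads sit in few cells, so it cannot vouch for the calls given here. Alternatives were DESeq2, other size factors, no filter, no term for sex, only the mice of a contrast, a minimum of 20 cells, equal weight per cell, pseudocounts of 0.1 and 5, no cells of the CD31 and CD45 sorts, and each mouse left out.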

Additional observations from a re-analysis of the deposited data

Results flagged for a closer look

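In these results all mice of a group lay above all mice of the other group in some cell classes and below them in others. The groups hold different mice, so no mouse was followed from one group to the next. Except for Igfbp4 between P7 and P21, the difference between classes was not tested. Values are ratios of mean CPM.

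From P1 to P7 Igf1r had a ratio of 1.39 in adventitial fibroblasts and 2.1 in airway smooth muscle, and of 0.742 in alveolar fibroblasts and 0.687 in myofibroblasts. Igf2r had ratios of 1.32 in vascular smooth muscle and 1.28 in airway smooth muscle, and of 0.484 in pericytes. Igfbp2 was 437.4-fold higher in myofibroblasts against a floor of 3 reads, where both P1 mice had 0 reads, and had a ratio of 0.16 in adventitial fibroblasts. That floor treats reads as independent and is no lower bound. The share of myofibroblasts with an Igfbp2 read was 5.26% and 3.93% at P7, and the P1 zeros allow up to 8.82% and 11.1%. Igfbp3 had a ratio of 5.89 in myofibroblasts and 0.416 in adventitial fibroblasts. In myofibroblasts the share of thinned cells with an Igfbp3 read overlapped, with 11.8% and 0% at P1 and 9.87% and 9.55% at P7. The 0 of the P1 male allows up to 11.1%. Over all genes, 14.0% to 25.7% were higher and 15.3% to 22.8% lower without overlap between mice in these comparisons.

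From P7 to P21 Igfbp4 had a ratio of 1.29 in adventitial fibroblasts and 3.47 in vascular smooth muscle, and of 0.201 in alveolar fibroblasts and 0.581 in airway smooth muscle. The difference between adventitial and alveolar fibroblasts was 2.60 in log2 (SE 0.28, adjusted p = 0.0572 in edgeR's interaction test), and the other differences were not tested. Over all genes, 14.4% to 18.9% were higher and 22.7% to 32.9% lower without overlap in these 4 classes.

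Under hyperoxia Igf2r had a ratio of 1.27 in airway smooth muscle and 0.716 in adventitial fibroblasts. Igfbp2 had a ratio of 2.18 in adventitial fibroblasts and 0.153 in myofibroblasts. In myofibroblasts the share of thinned cells with an Igfbp2 read overlapped, with 5.26% and 3.93% in normal air and 0% and 6.67% in hyperoxia. That 0 allows up to 5.17%. The normal-air reads sat in few cells, as given above. Over all genes, 17.3% to 28.9% were higher and 16.4% to 23.1% lower without overlap in these 3 classes.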

How the results depend on the processing

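With 2 mice per group, counts of members past the threshold moved with the fit. No direction reversed among the members called in the full fit, the only ones whose direction was compared across the alternatives. The cause of each move was not tested. In DESeq2 the count was 4 (0 in edgeR) for P21 against P7 in alveolar fibroblasts, 5 (3) in airway smooth muscle, 2 (0) in vascular smooth muscle and 1 (0) in adventitial fibroblasts. It was 2 (0) for P7 against P1 in myofibroblasts, 1 (0) in each of the 3 age contrasts of pericytes, and 1 (0) for hyperoxia in adventitial fibroblasts and in myofibroblasts. With only the mice of the contrast in the fit it was 0 (3) for P1 against E18.5 in alveolar fibroblasts, 2 (0) for P21 against P7 in alveolar fibroblasts, 1 (0) in vascular smooth muscle, and 1 (0) for hyperoxia in myofibroblasts. With each cell weighted equally in limma it was 2 for P21 against P7 in alveolar fibroblasts, and 1 for P21 against P7 in adventitial fibroblasts, P7 against P1 in myofibroblasts and hyperoxia in myofibroblasts (0 each in edgeR). For P21 against P7 in alveolar fibroblasts it was 1 with no term for sex and 3 with at least 20 cells per library. With no filter on low counts it was 0 (3) for P21 against P7 in the mean over classes. It was 1 (0) in vascular smooth muscle, and 2 (0) for the interaction of adventitial and alveolar fibroblasts. A pseudocount of 5 gave 1 (0) for hyperoxia in the mean over classes, Igfbp5. The share of all genes called varied between comparisons in each of these settings. It was 0% to 0.921% with only the mice of a contrast and 0% to 22.9% with equal weight per cell. With no term for sex it was 0% to 9.5%, with at least 20 cells 0% to 1.13%. With no filter it was 0% to 5.03%, and with a pseudocount of 5 0.28% to 4.6%.

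Leaving out 1 mouse at a time gave 0 to 6 members for P1 against E18.5 in alveolar fibroblasts, with 6 without the E18.5 female and 0 without any mouse of P1, P7, P21 or hyperoxia. It gave 0 to 3 for P21 against P7 in alveolar fibroblasts (3 without either E18.5 mouse), 1 to 3 in airway smooth muscle (1 without either P7 mouse in normal air), 0 to 1 in vascular smooth muscle (1 without either hyperoxic mouse) and 1 to 3 in the mean over classes (1 without the P7 female, the P7 male or the P21 male). It gave 0 to 2 for P7 against P1 in myofibroblasts (2 without either P1 mouse), 0 to 2 for hyperoxia in myofibroblasts (1 without the P1 female, 2 without the P1 male) and 0 to 1 for the interaction of myofibroblasts and alveolar fibroblasts (1 without either P7 mouse in normal air). Where 1 mouse is left in a group, it is assumed to vary like the others. The share of all genes called also varied widely between the fits with a mouse left out. A higher count of members in such a fit is therefore not particular to the members. Whether the counts of members followed the share of all genes was not tested. RLE size factors kept all 22 counts they were run on within 1.5 times, and leaving out the CD31 and CD45 sorts all 23. Of 26 levels by subtype, 9 moved by more than the spread between mice under TMM scaling, and 11 of 13 makeup shares moved when reads replaced reads per kilobase. DESeq2 called 1.11% to 26.5% of all genes. The fits match mice by a term for sex, and without it only the count for P21 against P7 in alveolar fibroblasts, given above, moved past 1.5 times. No paired analysis was possible because, beyond sex, the replicates are named mice that each belong to 1 group and share no replicate number.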
